A study of Homo sapiens with 5 samples.

Results

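Translation initiation factors are the proteins that bring the initiator tRNA, the small ribosomal subunit and an mRNA together and find the start codon. The genes described here are the rows of the authors' deposited table whose gene name begins with EIF followed by a digit from 1 to 6, which takes in the eIF2 kinases (EIF2AK genes) and the eIF4E-binding protein gene EIF4EBP1. They number 41 of 6309 genes, of which 14 belong to the eIF2 and eIF2B group, 11 to eIF3, 9 to the eIF4 group and 7 to the remaining factors. Membership goes by the gene name, and the rule was set with earlier results of these data known. EIF3F and EIF3H, also named for comparison with EIF3A and EIF4G1, were not analysed here, so that comparison rests on EIF3E and EIF3K.

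The cells were HL-60, an established human leukaemia line of promyelocytes, the precursors of neutrophils, with genotype WT. The treated cells received decitabine, a deoxycytidine analogue that traps DNA methyltransferases, in doses of 100 nM given at the start, at 24 hours and at 48 hours, and the control cells received the solvent DMSO. Both were lysed at 72 hours with cycloheximide, which holds ribosomes on the mRNA. Total RNA was sequenced from 2 samples treated with decitabine and 2 with DMSO, per the labels, and ribosome-protected fragments make up 1 further pooled library. The title of the pooled library names neither drug nor replicate, so how its fragments were divided by treatment is not known here. As a model this is a single cell line, and the labels do not say whether the duplicates came from separate cultures. The deposited table gives results per gene for decitabine against DMSO and no value per library, so no sample values, no depth and no spread between replicates can be shown.

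In translation initiation, eIF2 carries the initiator tRNA in its GTP form, eIF2B recharges eIF2 with GTP, and stress kinases block that recharging by phosphorylating eIF2. The large eIF3 complex sits on the small ribosomal subunit and links it to eIF4F, which is made of the cap-binding eIF4E, the scaffold eIF4G and the RNA helicase eIF4A. Some mRNAs of the translation machinery begin with a cytosine followed by an unbroken run of pyrimidines (C or T in the DNA), the terminal oligopyrimidine or TOP motif, and mTOR and the RNA-binding protein LARP1 are known to control their translation. EIF3E, EIF3F, EIF3H and EIF4B are textbook TOP mRNAs.

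Transcript starts are shown because the coefficients are also compared by the letters that open the mRNA. Each window holds 10 bases before and 20 bases from the annotated start on, 5′ to 3′, from RefSeq on GRCh38.p14, and capitals mark the run that opens the transcript. RefSeq starts were matched by symbol for 34 of 41 members. No start was taken for EIF2AK1, EIF2S2, EIF3A, EIF3CL, EIF3E, EIF3G or EIF4EBP1. The first 7 windows are all members whose start is a C followed by at least 4 further C or T.
EIF2S3 (chrX:24054946-24054975, plus strand): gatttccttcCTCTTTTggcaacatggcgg
EIF2A (chr3:150546777-150546806, plus strand): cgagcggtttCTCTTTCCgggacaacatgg
EIF2D (chr1:206612446-206612475, minus strand): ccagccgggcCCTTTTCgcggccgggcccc
EIF3D (chr22:36529147-36529176, minus strand): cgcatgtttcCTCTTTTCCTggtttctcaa
EIF3K (chr19:38619178-38619207, plus strand): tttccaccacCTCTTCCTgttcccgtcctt
EIF3M (chr11:32583821-32583850, plus strand): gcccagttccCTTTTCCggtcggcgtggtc
EIF4B (chr12:53006446-53006475, plus strand): tcatccgggtCTTTTgcgttctctttccct
For contrast, these starts belong to well measured members without such a run. EIF4G1 has 3 annotated starts and EIF4G2 has 2. In EIF4G2 a run of 7 C or T begins within 2 bases of an annotated start, though not at it.
EIF4G1 (chr3:184314596-184314625, plus strand): gcggggagccggaaatggttgtggactacg
EIF4G1 (chr3:184315154-184315183, plus strand): gggccgaccctcacttgcctgaaaccggct
EIF4G1 (chr3:184320253-184320282, plus strand): ctggatctgggccctgcccccagagatcag
EIF4G2 (chr11:10807977-10808006, minus strand): tgtcggaagcacttccctaacttgcgcctg
EIF4G2 (chr11:10808907-10808936, minus strand): acgccttagcgccagcagtgagtcggagct
EIF3B (chr7:2354817-2354846, plus strand): tcgcacgcacatggctgggctgtagccgtc
EIF4A1 (chr17:7572815-7572844, plus strand): ggcactccgccctagtttctaaggatcatg

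The value per gene is the drug coefficient of the authors' model of translation efficiency, which sets ribosome footprints of an mRNA against its total level, and a positive coefficient means higher efficiency with decitabine than with DMSO. It was read as a natural log, but its log base is not stated, and folds are given for both readings where they matter. The error beside a coefficient is an implied standard error (SE), found by dividing the coefficient by the z statistic behind its p-value, and intervals are 95% intervals from it. It holds what the authors' model counted as error, which may be technical. In differences between genes, the errors of the genes were combined as if independent. A gene was called at an adjusted p below 0.05 over all 6309 genes. The coefficients of all genes had a median of 0.09 and not 0 in the authors' deposited table, with 65.0% above 0. The calls, and some of the values, are therefore also given with that median taken as zero. A coefficient between 0 and 0.09 is positive as deposited and negative relative to that median.

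Of the 41 initiation factors, 1 was called, and the call was EIF4G1, which was higher with decitabine. Among all genes of the authors' deposited table, 0.634% were called higher and 0.174% lower. With zero at the median of all genes no factor was higher, against 0.0793% of all genes, and 2 were lower, EIF3E and EIF3CL, against 0.507% of all genes. At an unadjusted p below 0.05, 6 factors were higher, against 8.35% of all genes, and 3 were lower, against 1.95% of all genes. The 6 were EIF1AD, EIF2B5, EIF3A, EIF3B, EIF4G1 and EIF4G2, and the 3 were EIF2B2, EIF3CL and EIF3E. The same count with zero at the median was 3 higher, against 3.69% of all genes, and 3 lower, against 4.25%.

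The factors were split in direction. The authors' deposited table had 19 of 41 (46.3%) below 0, against 35.0% of all genes, and their median coefficient was 0.02, against 0.09 for all genes. Below the median of all genes lay 22 of 41, or 53.7%. Initiation factor mRNAs were measured with more precision than most, with a median implied SE of 0.18, against 0.25 over all genes. The z relative to the median of all genes had an SD of 1.47 over the factors and 1.15 over all genes.

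**Figure D1:**
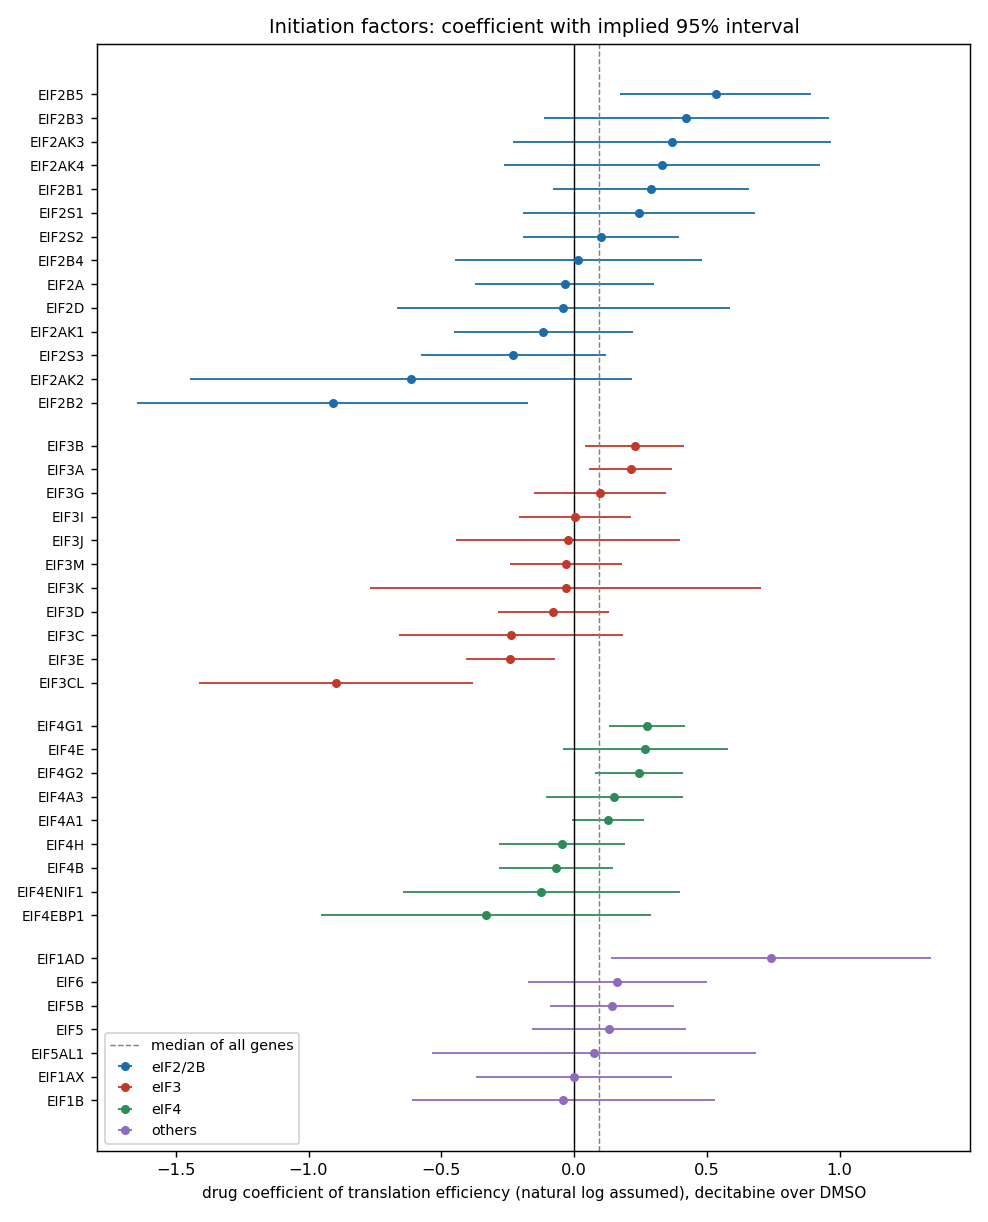
Drug coefficient (decitabine over DMSO, natural log assumed) of the 41 initiation factors on the horizontal axis, grouped and ordered by value, with bars for the implied 95% interval. The solid line is 0 and the dashed line the median of all genes, 0.09; EIF4G1, EIF3A and EIF3B lie above 0 with narrow bars and EIF3E below it.

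The eIF4 group held the call. Its cap-binding, scaffold and helicase mRNAs had coefficients above the median of all genes, and its accessory factors had coefficients below 0. This split was not planned. Relative to that median, EIF4G1 alone in the group had an interval clear of 0, and as deposited the intervals of the accessory factors reached across 0. EIF4G1, the scaffold that joins the cap-binding protein to the helicase and to eIF3, rose in the authors' deposited table, where its coefficient was 0.28 ± 0.07 (implied SE) with an adjusted p of 0.0306. This is 1.32 times the translation efficiency in DMSO if the coefficient is a natural log and 1.21 times if it is a log2 value. With zero at the median of all genes EIF4G1 was at 0.18 with an adjusted p of 0.45, so the call depends on where zero is placed. EIF4G1 (ENSG00000114867) lies on chromosome 3 from 184314606 to 184335358 on GRCh38.p14, as a whole-gene span.

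EIF4G2, a relative of eIF4G that lacks the part binding eIF4E, lay close to EIF4G1 in the authors' deposited table, at 0.24 ± 0.08 with an adjusted p of 0.169. Relative to the median of all genes EIF4G2 was at 0.15, with an interval of -0.02 to 0.31. The difference EIF4G1 minus EIF4G2 was 0.03, with an interval of -0.19 to 0.25. For EIF4E, the cap-binding protein itself, the authors' deposited table gave 0.27 ± 0.16 with an adjusted p of 0.57. EIF4A1, the main helicase of eIF4F, was the most precise of all factors in the authors' deposited table, at 0.13 ± 0.07 with an adjusted p of 0.53. All 3 measured eIF4F subunits thus had coefficients above the median of all genes. EIF4G1 was the one that passed as deposited, and none of them passed with zero at that median. EIF4A3, a relative of eIF4A that acts in the exon junction complex, had 0.15 ± 0.13 in the authors' deposited table, and the interval of EIF4A1 minus EIF4A3 was -0.32 to 0.27.

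The helpers of the helicase had coefficients below 0. EIF4B, which stimulates eIF4A, had -0.07 ± 0.11 (implied SE) and EIF4H, a related stimulator, had -0.05 ± 0.12 in the authors' deposited table. Neither passed the test. EIF4G1 exceeded EIF4B by 0.34, with an interval of 0.08 to 0.60, whereas EIF4A1 exceeded it by 0.20 with an interval of -0.06 to 0.45. Neither pair was planned, and EIF4G1 was the highest of the eIF4 group, so these differences are a description. The repressors of eIF4E were less well measured: EIF4EBP1, the binding protein that mTOR inactivates, had -0.33 ± 0.32 and EIF4ENIF1, which carries eIF4E into the nucleus, had -0.12 ± 0.27 in the authors' deposited table. Over the group of 9 the median was 0.13 and 4 members were below 0.

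The eIF3 subunits lay on both sides of zero, and the pair at the ends among the well measured ones was EIF3B and EIF3E. The group of 11 had a median of -0.03 in the authors' deposited table, 7 below 0 and 8 below the median of all genes. EIF3A, the largest subunit and a scaffold of the complex, stood at 0.21 ± 0.08 in the authors' deposited table, with an adjusted p of 0.211. EIF3B, which binds the subunits g and i, stood at 0.23 ± 0.10 in the authors' deposited table, with an adjusted p of 0.323. As deposited both intervals lay above 0, from 0.06 to 0.37 and from 0.04 to 0.42, and neither gene was called. Relative to the median of all genes both reached across 0, from -0.04 to 0.27 for EIF3A and from -0.05 to 0.32 for EIF3B. EIF3A minus EIF3B was -0.02, with an interval of -0.26 to 0.23.

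EIF3E, a scaffold subunit that is not part of the budding yeast complex, pointed the other way. The authors' deposited table put it at -0.24 ± 0.09 with an adjusted p of 0.19, which is not a call. With zero at the median of all genes it was at -0.33 and was called lower, with a Benjamini-Hochberg adjusted p of 0.022. As deposited, the value is 0.787 times the translation efficiency in DMSO as a natural log and 0.847 times as a log2 value. RefSeq names 4 pseudogenes after EIF3E (ENSG00000104408), 13 after EIF4A1, 9 after EIF4B, 7 after EIF2S2 and 5 after EIF4E. It also names 4 after EIF2A, 3 after EIF3K and 3 after EIF3J, fewer after some other factors, and none after EIF3A or EIF4G1. The handling of reads that match such copies is not given in the sources used, so the values of all factors with such copies are uncertain.

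The comparison of EIF3E and EIF3K with EIF3A and EIF4G1 does not depend on where zero is placed, since a constant cancels in a difference. The mean coefficient was -0.14 for EIF3E and EIF3K and 0.24 for EIF3A and EIF4G1, from the authors' deposited table. The difference was -0.38 ± 0.20 (propagated implied SE), with an interval of -0.77 to 0.01. Set against all other measured eIF3 subunits in place of EIF3A and EIF4G1, the difference was -0.056 ± 0.20. That set includes EIF3CL at -0.90, a copy of EIF3C with an uncertain value that pulls the mean of the set down. The difference without EIF3CL was not tested. Against EIF3A and EIF4G1, EIF3E carried the precise part: EIF3E minus EIF3A was -0.45, with an interval of -0.68 to -0.22, and EIF3E minus EIF4G1 was -0.52, with an interval of -0.74 to -0.29. As ratios these are 0.636 and 0.597 on a natural log and 0.73 and 0.7 on a log2 scale. EIF3K, the smallest subunit, had -0.03 ± 0.38 in the authors' deposited table, among the least precise of the factors. EIF3K minus EIF3A was -0.25 with an interval of -0.998 to 0.51, which leaves room for a difference in either direction. These genes were picked with their values known, so the differences are a description and carry no p-value.

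**Figure D2:**
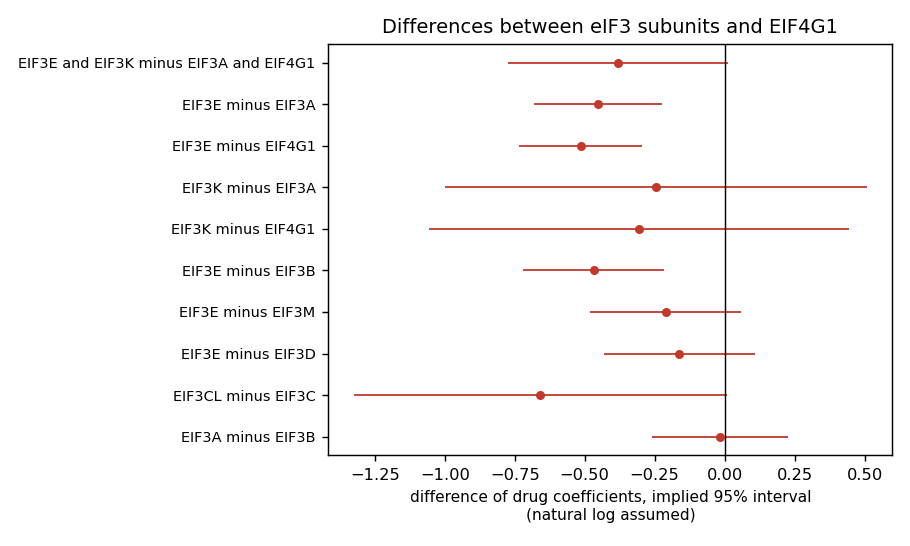
Differences of drug coefficients between pairs of factors, first minus second, with implied 95% intervals (horizontal axis, natural log assumed). Differences of EIF3E from EIF3A, EIF4G1 and EIF3B lie wholly below 0, and those of EIF3K reach across 0. EIF3E and EIF3B are the ends of the well measured eIF3 subunits, so their difference is one between extremes.

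The rest of eIF3 filled the range between. EIF3G and EIF3I, which with EIF3B form a module also known from budding yeast, had coefficients of 0.10 ± 0.13 and 0.00 ± 0.11 in the authors' deposited table. EIF3D, which can bind the cap of certain mRNAs, had -0.08 ± 0.11, and EIF3M had -0.03 ± 0.11, in the authors' deposited table. The loosely bound EIF3J had -0.02 ± 0.22 in the authors' deposited table. All 4 of the measured subunits D, E, K and M, which budding yeast lacks, were below 0, although the intervals of D, K and M reached across it. Of A, B, C, G, I and J, which budding yeast has, 2 of 6 were below 0, with EIF3CL left out as a copy, and this grouping was made after the values were seen. EIF3E minus EIF3M was -0.21, with an interval of -0.48 to 0.06, and EIF3E minus EIF3D was -0.16, with an interval of -0.43 to 0.11, so these neighbours did not differ beyond their errors.

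EIF3C and EIF3CL, a pair of near-identical gene copies on chromosome 16, had coefficients below 0. EIF3CL was at -0.90 ± 0.26 with an adjusted p of 0.0642 in the authors' deposited table, where only EIF2B2 was lower among the factors. EIF3C was at -0.24 ± 0.22 with an adjusted p of 0.768 in the authors' deposited table. With zero at the median of all genes EIF3CL was called lower, with a Benjamini-Hochberg adjusted p of 0.0317. EIF3CL minus EIF3C was -0.66, with an interval of -1.32 to 0.01. The spans on GRCh38.p14 are 28379581 to 28426418 for EIF3CL and 28688558 to 28735730 for EIF3C. Reads of the copies can hardly be assigned to one of them, so the value of each is uncertain. The interval of their difference treats their errors as independent, so it is uncertain too.

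**Figure D3:**
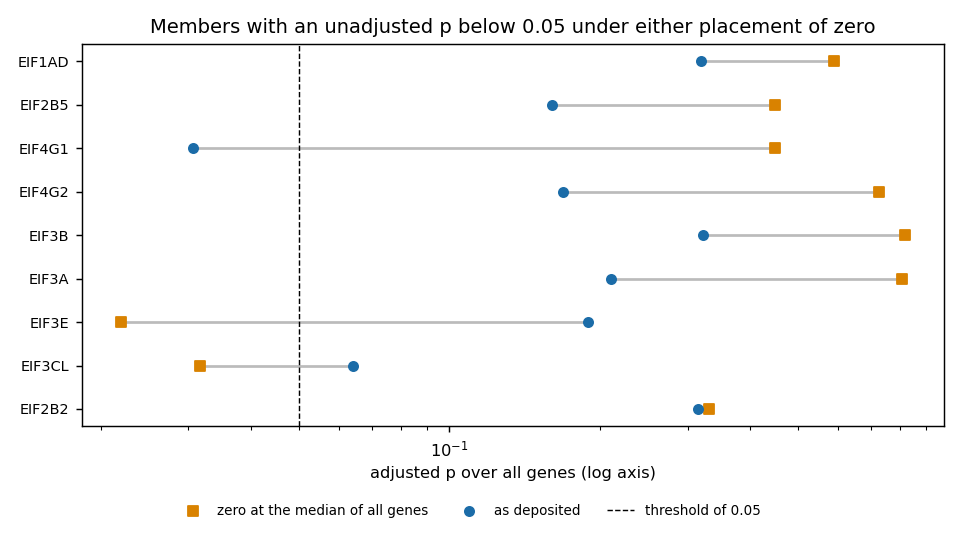
Adjusted p over all genes (horizontal log axis) for the 9 factors with an unadjusted p below 0.05, as deposited (circles) and with zero at the median of all genes (squares), with a dashed line at 0.05. EIF4G1 crosses the line from the called side as deposited, 0.0306, to 0.45, and EIF3E and EIF3CL cross it the other way, to 0.022 and 0.0317.

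The eIF2 and eIF2B group had no call, where 0.634% of all genes were called higher and 0.174% lower, and its subunits spread widely. The median of its 14 members was 0.06 in the authors' deposited table, with 6 below 0. Of the eIF2 subunits, EIF2S1 (alpha, the subunit that stress kinases phosphorylate) had 0.24 ± 0.22, EIF2S2 (beta) had 0.10 ± 0.15 and EIF2S3 (gamma, which binds GTP and the initiator tRNA) had -0.23 ± 0.18 in the authors' deposited table. The interval of EIF2S1 minus EIF2S3 was -0.09 to 1.03, and that of EIF2S2 minus EIF2S3 was -0.13 to 0.79, so none of these subunits stood apart beyond its error.

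The eIF2B subunits held both ends of the group. EIF2B5, the catalytic epsilon subunit, was at 0.53 ± 0.18 with an adjusted p of 0.161 in the authors' deposited table. EIF2B2, the beta subunit, was the lowest of all 41 factors in the authors' deposited table, at -0.91 ± 0.38 with an adjusted p of 0.315. The difference EIF2B5 minus EIF2B2 was 1.44, with an interval of 0.62 to 2.26, for a pair picked as the extremes of 5. EIF2B1 (alpha) had 0.29 ± 0.19, EIF2B3 (gamma) had 0.42 ± 0.27 and EIF2B4 (delta) had 0.02 ± 0.24 in the authors' deposited table. Of the 5 subunits, 4 thus had coefficients above 0 and 3 above the median of all genes, and none was called under either placement of zero.

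The 4 kinases of eIF2 were in no case called. EIF2AK3 (PERK, which senses misfolded protein in the endoplasmic reticulum) had 0.37 ± 0.31 and EIF2AK4 (GCN2, which senses uncharged tRNA) had 0.33 ± 0.30 in the authors' deposited table. EIF2AK1 (HRI, the haem-regulated kinase) had -0.12 ± 0.17 and EIF2AK2 (PKR, activated by double-stranded RNA) had -0.61 ± 0.42 in the authors' deposited table. EIF2AK2 was the least precise of all 41 factors, and its interval ran from -1.45 to 0.22. EIF2A and EIF2D, which can deliver initiator tRNA without eIF2, both had -0.04 in the authors' deposited table, with implied SEs of 0.17 and 0.32.

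The remaining 7 factors had no call and a median of 0.13 in the authors' deposited table, where 0.634% of all genes were called higher and 0.174% lower. EIF5, which makes eIF2 hydrolyse its GTP, had 0.13 ± 0.15, and EIF5B, which joins the ribosomal subunits, had 0.14 ± 0.12, in the authors' deposited table. EIF6, which keeps the large subunit from joining too early, had 0.16 ± 0.17 in the authors' deposited table. EIF1AX, a factor of start codon scanning, had 0.00 ± 0.19 and EIF1B, a close relative of the scanning factor eIF1, had -0.04 ± 0.29 in the authors' deposited table. EIF1AD, a gene with an eIF1A-like domain, was the highest of all factors in the authors' deposited table, at 0.74 ± 0.31 with an adjusted p of 0.319. EIF5AL1, a near-identical copy of EIF5A whose reads may be shared with it, had 0.08 ± 0.31 in the authors' deposited table. Apart from EIF1AD, the intervals of these genes all reached across 0.

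**Figure D4:**
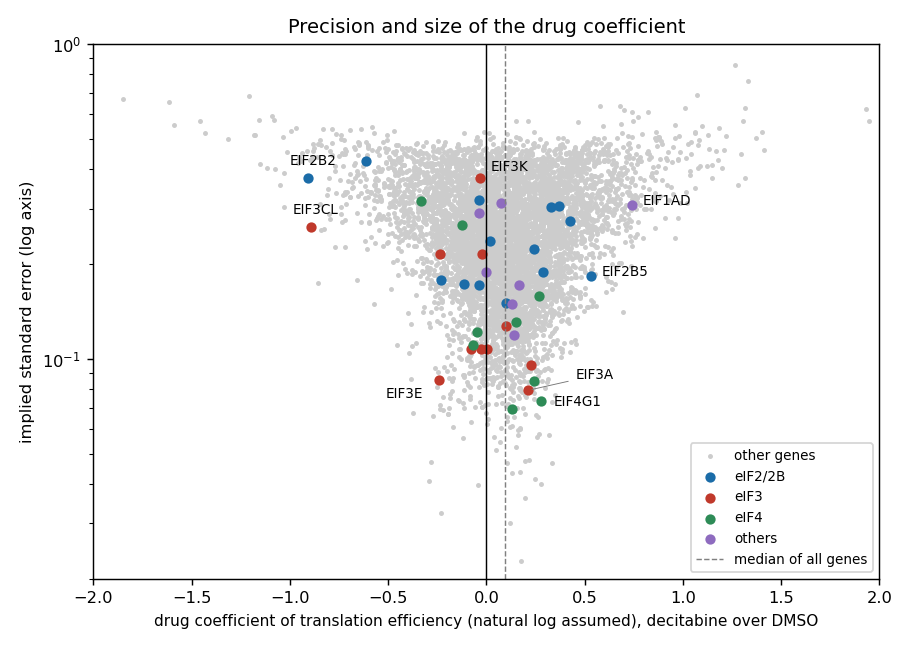
Implied standard error (vertical log axis) against drug coefficient (natural log assumed) for the initiation factors, coloured by group, over the other genes in grey, with genes beyond ±2 left out of the plot. EIF4A1, EIF4G1, EIF3A, EIF4G2 and EIF3E are the 5 most precise factors, and EIF3K and EIF2AK2 are among the least precise.

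The members that open with a pyrimidine run, whose starts are printed above, all had coefficients below 0. They are EIF2A, EIF2D, EIF2S3, EIF3D, EIF3K, EIF3M and EIF4B, with runs of 5 to 10 bases, and their coefficients went from -0.23 for EIF2S3 to -0.03 for EIF3M, with a median of -0.04, in the authors' deposited table. No member of the 7 was called under either placement of zero, and each interval reached across 0. The 27 members with an annotated start and no run had a median of 0.14, with 8 below 0. Over all 5285 genes with a RefSeq start, the 410 with a run had a median of 0.03 and 45.9% below 0, and the 4875 without one had a median of 0.10 and 34.1% below 0, from the authors' deposited table. Without ribosomal protein genes, 376 genes had a run, with a median of 0.05 and 42.0% below 0 in the authors' deposited table.

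A run at the start was found in 20.6% of the initiation factors with a start, in 7.76% of all genes of the table with one and in 4.07% of all 35116 annotated starts. The search read the coding strand at the annotated start alone, and a gene counted if any of its starts had the run. The median implied SE was 0.17 for the members with a run and 0.19 for those without. EIF3E has no start here, and its textbook TOP class is not from these letters. Which start HL-60 cells use was not measured, and a match is a description of letters, not a measured site. The search was made after the coefficients were seen.

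**Figure D5:**
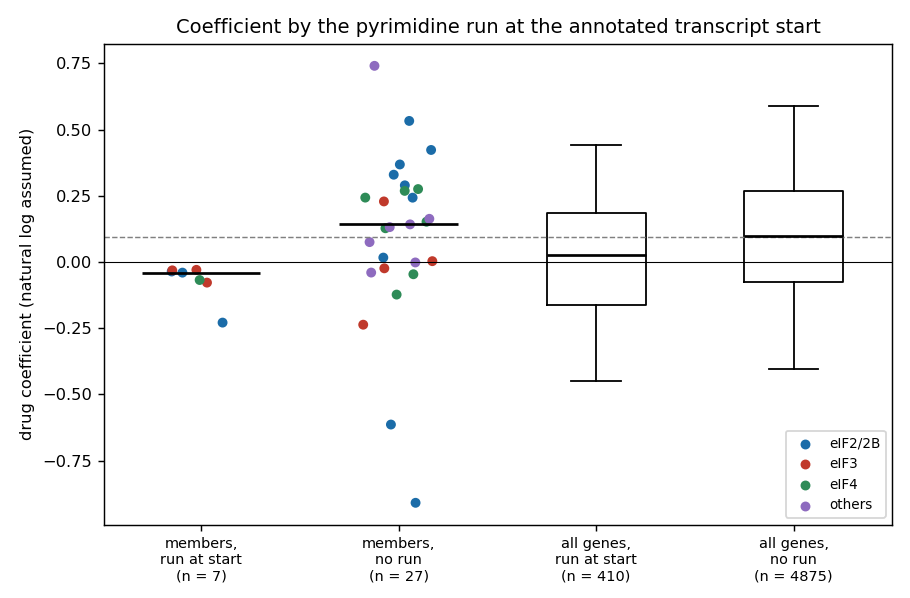
Drug coefficient (vertical axis, natural log assumed) of initiation factors with and without a pyrimidine run at the annotated start (points, black bars are medians) and of all genes in the same classes (boxes span the quartiles, whiskers the 5th to 95th percentiles). All 7 points of the first column lie below 0 and below the dashed median of all genes.

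Partners of the initiation factors were read from a list of 21 cap-binding, poly(A)-binding and small-subunit proteins, of which 15 were in the authors' deposited table. A single partner passed: LARP1, which binds the TOP motif and the cap and restrains TOP mRNA translation, rose in the authors' deposited table, where its coefficient was 0.45 ± 0.11 with an adjusted p of 0.0202. Among all genes 0.634% were called higher. With zero at the median of all genes LARP1 had an adjusted p of 0.172 and was not called. The median of the 15 was 0.09, the same as that of all genes to 2 decimals. LARP4, which binds poly(A), was at 0.44 ± 0.15 and DENR, a factor of ribosome recycling and reinitiation, at 0.71 ± 0.26 in the authors' deposited table, and neither passed. PABPC1, the main poly(A)-binding protein that eIF4G contacts, had 0.04 ± 0.11 in the authors' deposited table.

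Signalling genes that act on initiation gave no call, where 0.634% of all genes were called higher and 0.174% lower. Of 23 listed, 19 were in the authors' deposited table, with a median of 0.15 and 6 below 0. RPS6KA3, a kinase of the RSK family, was at 0.41 ± 0.18, GCN1, the activator of GCN2, at 0.20 ± 0.10, and MTOR at 0.27 ± 0.16 in the authors' deposited table, where their adjusted p-values ran from 0.39 to 0.595. All 5 promyelocyte markers looked for (MPO, ELANE, PRTN3, AZU1 and CTSG) were among the genes analysed, and none of the T cell, B cell, erythroid or megakaryocyte markers was.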

How the data were processed

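Total RNA and ribosome-protected fragments of HL-60 cells were compared between decitabine and DMSO. Bowtie2, SAMtools 1.11, UMI-tools 1.1.1 and hg38 are named in the submitters' processing notes, without roles. The deposited table holds 1 transcript per gene with the authors' model coefficient, taken here as a natural log, and, per the file headers, its p-value, a p-value adjusted for multiple tests and a q-value. Benjamini-Hochberg adjustment of the deposited p-value over 6309 genes gave the adjusted values again (largest difference 6.61e-14). No source used here gives the fitting program, filter or library scaling, and counts were not analysed, so the planned count test could not be run and the depth is unknown.

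Implied standard errors, z tests after subtracting the median or the precision-weighted mean of all coefficients, Benjamini-Hochberg adjustment over all genes and differences between genes were computed with Python 3.11.15, NumPy 2.4.6, pandas 2.3.3 and SciPy 1.17.1, and the z test was tested on simulated data. Members were taken by gene name, and the rule and the lists were chosen with earlier results of these data known. All members could be named, and from the partner and signalling lists the calls and the 3 smallest p-values. One gene that this rule would name is not reported here. PABPC1 was named after its value was seen. Alternatives were other thresholds and adjustments, centring, removal of imprecise genes and other definitions of the comparison sets.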

Additional observations from a re-analysis of the deposited data

How the results depend on the processing

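The number of initiation factors called higher, 1 as deposited, was 0 at an adjusted p below 0.01, 0 with the Benjamini-Yekutieli adjustment and 0 after centring on the median or on the precision-weighted mean of all genes. The number called lower, 0 as deposited, was 1 at an adjusted p below 0.1, 2 after centring on the median and 2 after centring on the weighted mean, since centring lowers every coefficient by the same amount. With 51 genes called as deposited (40 higher and 11 lower), all genes called numbered 19 below 0.01, 86 below 0.1 and 18 with Benjamini-Yekutieli, which follows from the thresholds, and with zero at the median there were 5 higher and 32 lower. The difference of EIF3E and EIF3K from EIF3A and EIF4G1, -0.38, was -0.48 with inverse-variance weights. It lay between -0.48 and -0.28 when any of these 4 genes was left out, and without EIF3E it was -0.28 ± 0.38 (propagated implied SE). Against all other eIF3 subunits as the comparison set, the difference of EIF3E and EIF3K was -0.056. The members of that set run from -0.90, for the uncertain copy EIF3CL, to 0.23. EIF3F and EIF3H could not be left out, since they were not analysed here. The weighted mean of eIF3 was 0.01, against a median of -0.03. Without the 25% least precise genes, the eIF2 and eIF2B median was 0.17 over 12 members, against 0.06 over all 14. It thus moved from below to above the median of all genes, 0.09. The medians of the other groups stayed the same to 2 decimals. Without EIF3CL, a choice made after seeing the data, the eIF3 median was -0.03. The 7 members with a pyrimidine run became 6 with at least 6 further pyrimidines after the start, with a median of -0.04. They became 9 when the run could begin within 2 bases of the start, with 8 below 0. The exception was EIF4G2, at 0.24. No paired analysis was possible because the table holds no values per library, and no replicate could be left out. The precision limits what can be seen: the intervals were -0.77 to 0.71 for EIF3K and -1.45 to 0.22 for EIF2AK2.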

Other observations

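Over all genes with a RefSeq start, the coefficient in the authors' deposited table went down with the length of the pyrimidine run that opens the transcript. The median was 0.10 for 4419 genes whose start is not a C, 0.05 for 186 genes with a run of 5 to 6 bases and 0.01 for 115 genes with 7 to 8 in the authors' deposited table. For 109 genes with 9 or more it was -0.0014 in the authors' deposited table. With ribosomal protein genes left out, the last 3 values were 0.07, 0.03 and 0.05, for 178, 105 and 93 genes, so the order between the longer runs did not hold without them. Genes share libraries and are not replicates, and no p-value is given.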
